A study of Mus musculus with 12 samples.

Results

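The genes described here encode the constitutive proteasome, its regulators and the chaperones that assemble it. They were taken by name: every protein-coding gene in the count table whose symbol ran from Psma to Psmg followed by a number, without the inducible catalytic subunits Psmb8, Psmb9 and Psmb10. The rule used no measured value and found 48 of the 39756 genes in the table. Of these, 46 were grouped by textbook function into the 20S alpha ring (7 genes), the non-catalytic (4) and catalytic (3) beta subunits, the tissue-specific core subunits (2), the 19S base ATPases (6) and other base subunits (3), the 19S lid (8), the chaperones of the 19S (3) and of the 20S (4), and the activators and inhibitor (6). The other 2 matched by name only: Psmc3ip, a meiotic recombination factor, and Psme3ip1, a protein that binds the Psme3 product. They were kept in all counts because the rule took them.

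Poly(A) RNA was sequenced from the ischemic hemisphere of 12 C57BL/6J mice, 4 in each of 3 groups, which by the study's methods were males 9 to 10 weeks old. Sham mice had sham surgery, whereas Vehicle and LJP mice had transient middle cerebral artery occlusion (tMCAO), a filament block of the artery that was withdrawn after 45 min. Sham and Vehicle mice received saline, and LJP mice received Laminaria japonica polysaccharide (LJP), a brown algal polysaccharide given into the stomach daily for 14 days before surgery and afterwards. The study took 200 mg/kg, its middle dose, into the experiments that followed dose finding, but neither the dose nor the collection time is stated for the sequenced mice themselves in the sources used here. All 12 libraries carry the same batch label, and each library is labelled as one replicate of its group. Total counts per mouse lay between 17960353 and 22216315. Neuron, astrocyte, microglia, oligodendrocyte and endothelial marker genes were all detected in each group, as in brain tissue, and 4 of 7 markers of infiltrating myeloid cells were at 3 or fewer counts in every Sham mouse, with Ly6g at 0.

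The 26S proteasome degrades proteins tagged with ubiquitin. Its 20S core is a barrel in which alpha rings form the gate and beta rings hold the proteolytic sites, while the 19S particle docks on the end, binds ubiquitin, removes it and threads the substrate inward with a ring of ATPases. Interferons replace the catalytic subunits with inducible ones and raise the 11S activator (PA28), and the transcription factor NRF1 (Nfe2l1) is known for raising the subunit genes together when proteasome activity is limiting. In brain the complex takes part in synaptic protein turnover and in clearing damaged proteins.

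Promoter sequences are shown for 4 subunits that rose in Vehicle mice, 1 each of the catalytic beta, non-catalytic beta, base and lid groups, as the start regions of genes that the results turn on. Each is the 150 bases before the RefSeq start (GRCm38.p6), 5′ to 3′ on the gene's strand, with capitals marking the antioxidant response element core TGACNNNGC in Psmb5 and CCAAT in Psmb3. Psmb5 lies at chr14:54617996-54618145 on the minus strand, Psmb3 at chr11:97703284-97703433 on the plus strand, Psmc4 at chr7:28050093-28050242 and Psmd8 at chr7:29180674-29180823, both on the minus strand.
Psmb5: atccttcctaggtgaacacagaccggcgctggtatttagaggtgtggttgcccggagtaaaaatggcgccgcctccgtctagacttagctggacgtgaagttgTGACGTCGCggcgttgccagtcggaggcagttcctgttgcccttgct
Psmb3: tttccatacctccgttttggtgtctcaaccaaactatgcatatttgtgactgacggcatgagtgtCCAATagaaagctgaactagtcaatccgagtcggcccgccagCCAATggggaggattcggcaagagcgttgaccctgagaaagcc
Psmc4: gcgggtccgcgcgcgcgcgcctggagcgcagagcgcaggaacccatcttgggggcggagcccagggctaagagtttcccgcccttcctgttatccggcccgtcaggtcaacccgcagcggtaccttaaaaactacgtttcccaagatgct
Psmd8: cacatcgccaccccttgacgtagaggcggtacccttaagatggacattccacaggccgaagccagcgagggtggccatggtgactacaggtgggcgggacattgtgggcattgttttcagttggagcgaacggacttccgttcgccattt

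Psmc4 and Psmd8 held neither motif on either strand. Of the 48 genes, 40 had a RefSeq promoter window of 250 bases before to 50 after the start. TGACNNNGC, the core bound by NRF1 and NRF2, was found on either strand in 6 of them (15.0%), against 14% of all 27025 promoters. These 6 were Psmb5, Psmb6, Psmc6, Psmd9, Psmd12 and Psme4. CCAAT, which NF-Y binds, was found in 15 of 40 (37.5%), against 41.1% of all promoters. Both shares were near those of promoters at large, and a match in these letters is a description, not a bound site.

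In the Sham group the level of each gene was compared per length, as CPM per kb, which is the mean count scaled to library size (CPM) and divided by the deposited gene length in kilobases. The 3 catalytic subunits lay between 55.4 (Psmb6) and 98.1 CPM per kb (Psmb5), and the non-catalytic beta subunits between 34.2 (Psmb2) and 98.2 (Psmb4). The alpha ring ran from 19.6 (Psma3) to 52.2 (Psma6), the base ATPases from 22.2 (Psmc6) to 108 (Psmc5) and the lid from 21.8 (Psmd11) to 66.2 (Psmd3). The subunits of the stable particle were thus spread over several-fold, although the assembled complex holds them in fixed proportion. Chaperones were lower, with the 4 core chaperones between 7.38 (Psmg4) and 8.44 (Psmg3) and the 3 base chaperones between 7.32 (Psmd10) and 17.5 (Psmd5). The lowest subunits were Psma8, the testis form of an alpha subunit, at 0.0892 CPM per kb, and Psmb11, the thymus form of the chymotrypsin-like subunit, at 0.0449. Psmb11 had 1 to 6 counts per mouse and was removed by the filter on low counts, so that 47 of the 48 genes were tested.

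**Figure D1:**
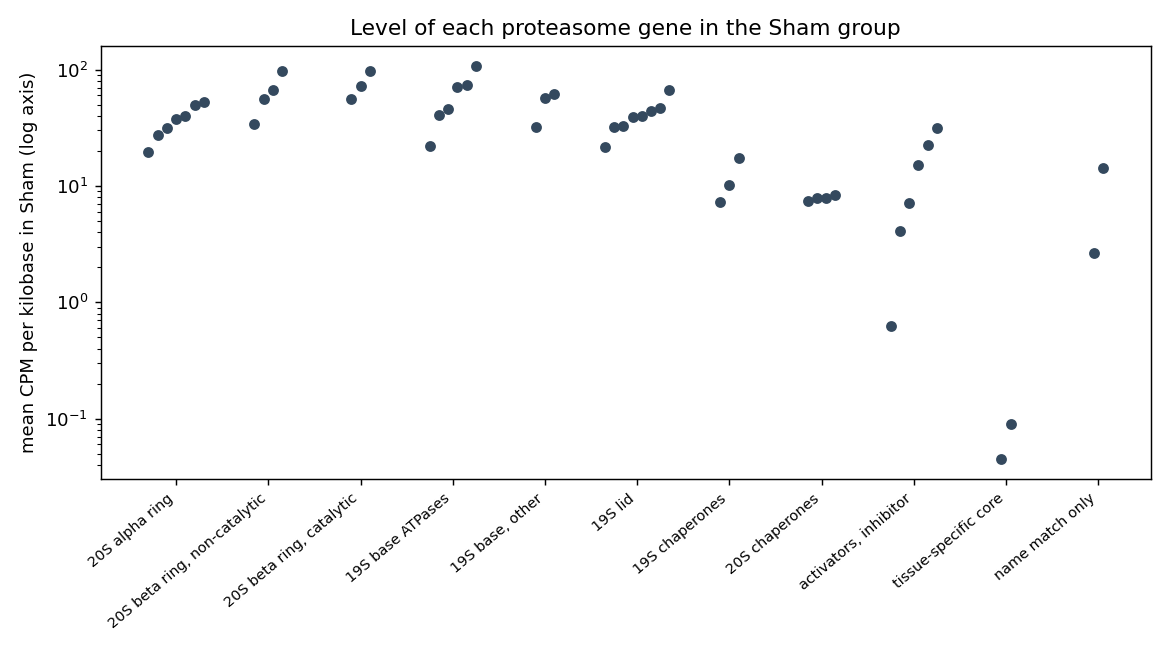
Mean level of each of the 48 genes in the 4 Sham mice, in CPM per kilobase on a log axis, with 1 point per gene and genes grouped by role. Core and 19S subunits lie between 19.6 and 108 CPM per kb, core chaperones between 7.38 and 8.44, and the tissue-specific subunits below 0.1.

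The first comparison, Vehicle against Sham, asks how ischemia and reperfusion changed these genes. Proteasome genes were shifted upward: 44 of the 47 tested (93.6%) had a higher mean in Vehicle mice, 21 rose by edgeR's quasi-likelihood test (adjusted p below 0.05 over 17558 genes) and none fell. The 21 were 44.7% of the genes tested, and 22.7% of all genes rose by the same test, while 17.3% of all genes fell. The median log2 fold change over the 47 genes was 0.26, against 3.5e-05 over all genes, of which 50% had a higher mean. Among the genes that rose the log2 fold change ran from 0.26 to 0.89. In 15 of the 47 genes the 4 Vehicle mice all lay above the 4 Sham mice, as did 20.7% of all genes, and in none did they all lie below, as in 18.8%. DESeq2 also called 21 genes higher and none lower, with 20% of all genes higher and 15.7% lower, and they were the same 21 genes. At an unadjusted p below 0.05, 28 were higher and none lower, against 27.1% and 22.8% of all genes. The study set its own limits (a log2 change beyond 0.58 either way and p under 0.01 before adjustment) on DESeq2 results, and here they were applied to the edgeR values. By these limits 3 genes were higher (Psmb3, Psme1 and Psme2) and none lower, with 15.3% of all genes higher and 6.39% lower.

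The shift was carried unevenly by the Vehicle mice. The median log2 change from the Sham mean over the 47 genes was 0.36 in Vehicle 1 and 0.45 in Vehicle 2, but 0.08 in both Vehicle 3 and Vehicle 4. Sham mice lay between -0.02 and 0.04 and LJP mice between -0.005 and 0.15. Vehicle 1 and Vehicle 2 were both above the other 10 mice in 33 of the 47 genes, as in 21.4% of all genes. Vehicle 3 and Vehicle 4 thus lay inside the range of the LJP mice. Without both Vehicle 1 and Vehicle 2, 8 genes rose (Psmb3, Psmb4, Psmb5, Psmb6, Psmb7, Psmd8, Psme1 and Psme2), 29.7% of all genes changed in either direction, and the median log2 fold change of the 47 genes was 0.09.

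Some other measures moved with the same mice. Summed CPM of 5 endothelial genes was 632 in Vehicle 1, 1311 in Vehicle 2, 254 in Vehicle 3 and 315 in Vehicle 4, against 174 to 193 in Sham and 165 to 230 in LJP mice. Summed CPM of 7 infiltrating myeloid genes was 201, 194, 45.4 and 82.5 in Vehicle 1 to 4, against 7.34 to 12.2 in Sham and 14.6 to 78.8 in LJP mice. Of the 7 genes, 2 (Ccr2 and Lyz2) passed the filter on low counts. Lyz2 alone was at 80.5, 161, 43.7 and 77.5 CPM in Vehicle 1 to 4, while S100a8 and S100a9 were at 52.6 and 62.1 CPM in Vehicle 1. Summed CPM of 8 neuronal genes was 5315, 4111, 6399 and 6162, against 6521 to 7323 in Sham and 6176 to 7236 in LJP mice. The mice with the highest proteasome values thus also had the highest endothelial and myeloid sums and the lowest neuronal sums. Their libraries were among the 3 deepest, at 21633197 and 22216315 counts, and LJP 1, the other of the 3, had 21856541 counts and a median proteasome change of 0.04. With every library thinned to the smallest total, 22 of 46 genes rose and 39.7% of all genes changed in either direction. Microglial and astrocyte sums were higher in every Vehicle and LJP mouse than in any Sham mouse. The microglial sum was 381, 699, 742 and 781 CPM in Vehicle 1 to 4. Vehicle 1 was thus the lowest of the Vehicle and LJP mice there. Of 6 microglial genes 5 rose in Vehicle against Sham, and P2ry12 was lower in Vehicle 1 (8.985 CPM) than in any Sham mouse. Of 6 astrocyte genes 2 rose, Gfap and Aldh1l1. Most of the astrocyte rise was in Gfap, with a mean of 141 CPM in Sham and 2066 in Vehicle mice. Lymphocyte genes summed to at most 1.29 CPM in any mouse. Summed CPM of 5 oligodendrocyte genes was 4804, 4679, 4593 and 4632 in Vehicle 1 to 4, against 3796 to 4636 in Sham and 3625 to 4504 in LJP mice, so that Vehicle 1 and Vehicle 2 were also the highest of the 12 mice there, by a small margin. The part of cell composition in the proteasome values was not tested, and in bulk tissue fewer cells of a type and less RNA per cell cannot be told apart.

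**Figure D2:**
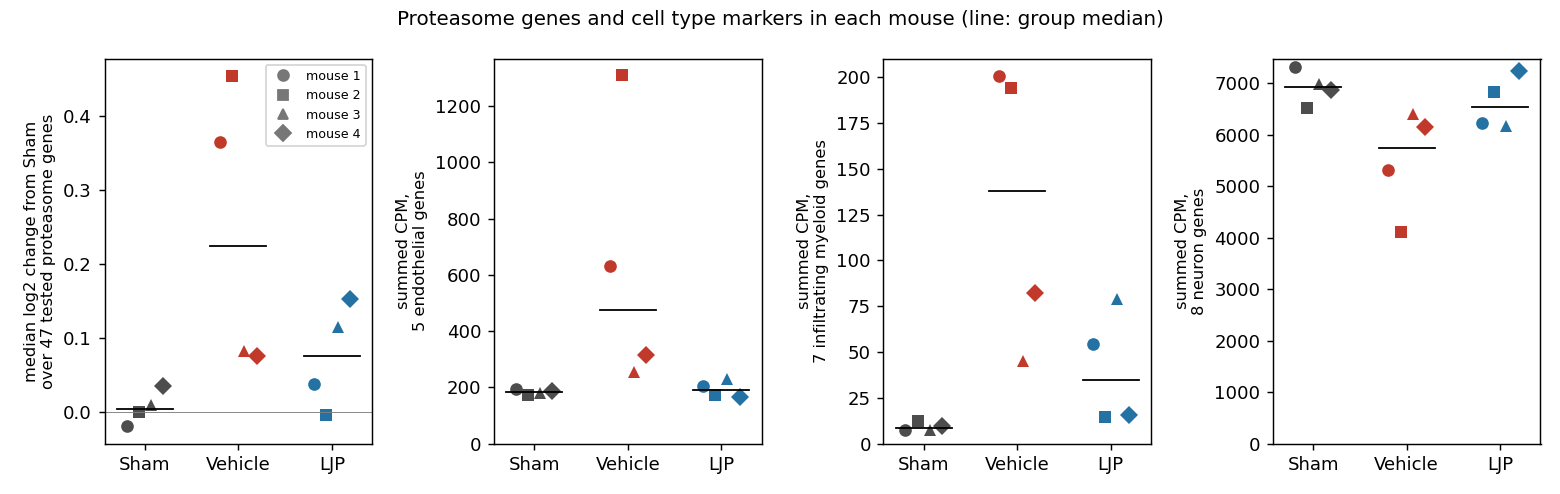
One point per mouse of each group, with the mouse number as symbol and the group median as a line: the median log2 change from the Sham mean over 47 tested proteasome genes, then the summed CPM of 5 endothelial, 7 infiltrating myeloid and 8 neuronal genes. Vehicle 1 (0.36) and Vehicle 2 (0.45) stand above the other 10 mice in the first panel and also hold the 2 highest endothelial and myeloid sums.

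Correlations between the genes were lower with the Vehicle mice left out. Over 1081 pairs of the 47 genes, the median Pearson r of deviations from the group means was 0.57 over the 12 mice, with 85.8% of pairs above 0, and 0.26 over the 8 Sham and LJP mice, with 67.7% above 0. Over all pairs of tested genes the medians were -0.001 and -0.0002. All pairs share the same libraries, so that these values are a description with no test.

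**Figure D3:**
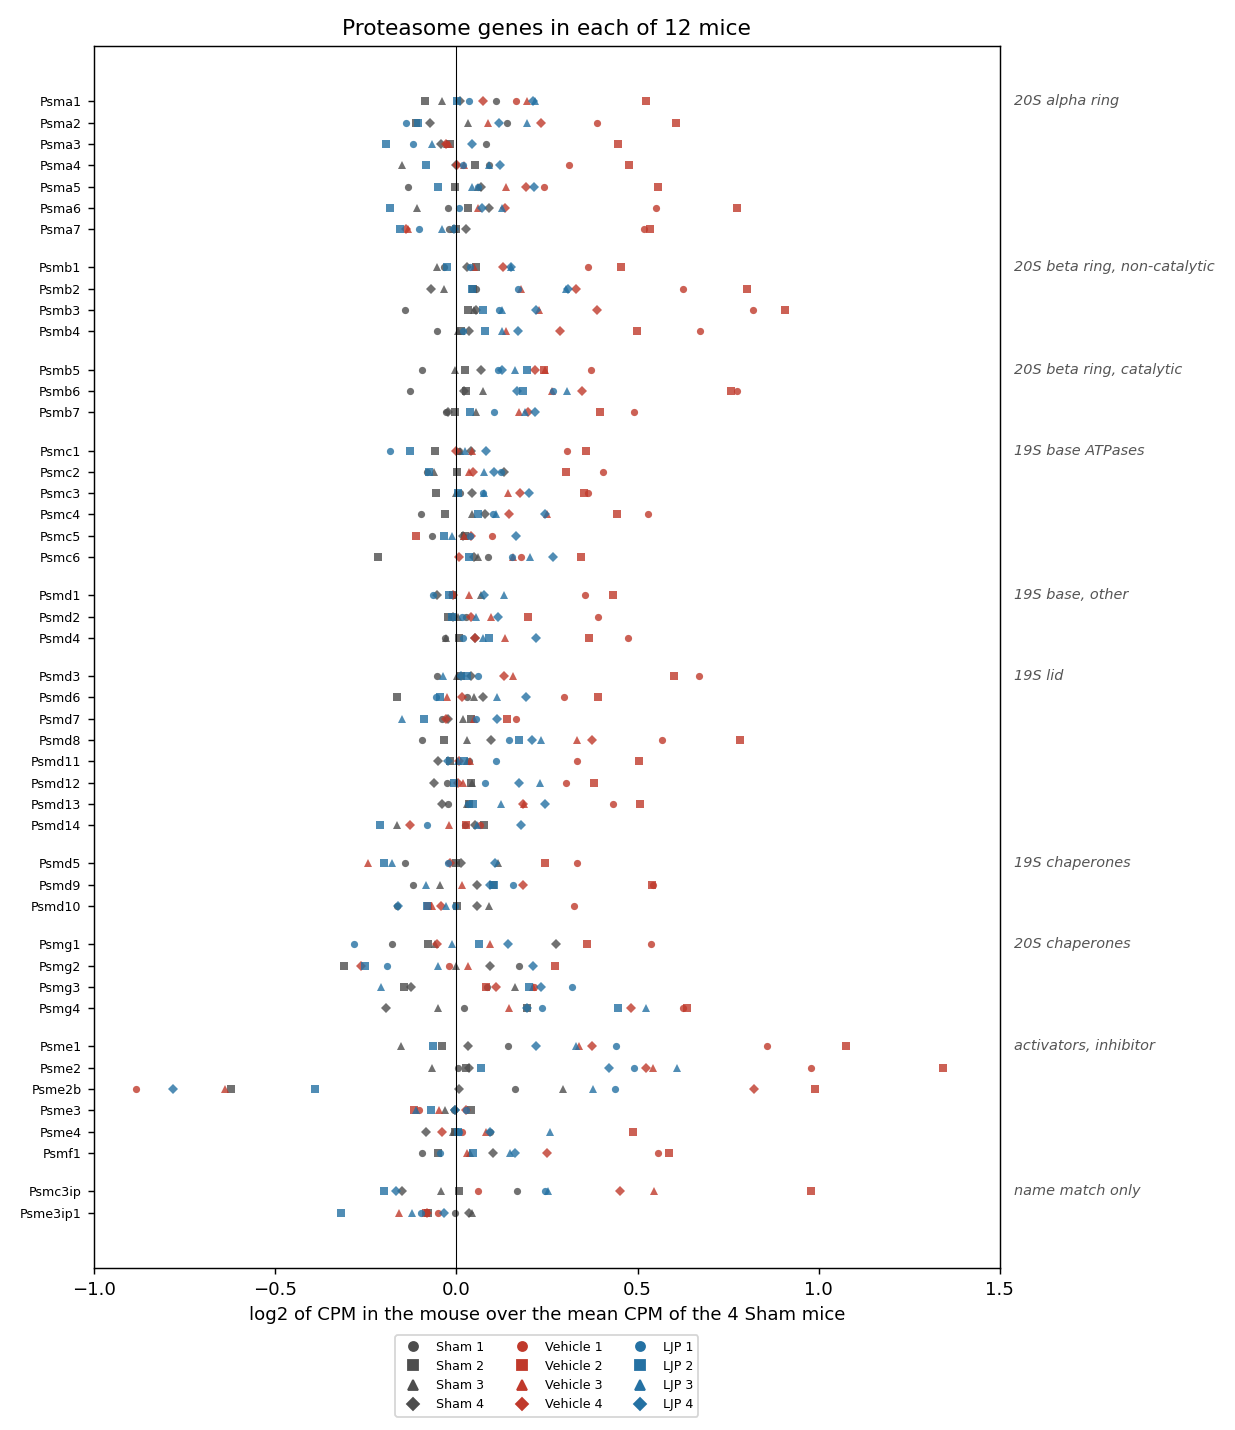
Log2 of the CPM in each mouse over the mean CPM of the 4 Sham mice (horizontal axis) for 46 tested genes in rows by role, with 1 point per mouse, colour for the group and symbol for the mouse number. Psma8, which has few counts, is left out of the plot. Red circles and squares (Vehicle 1 and Vehicle 2) lie to the right of the other mice in most rows, while Psmc5, Psmd14 and Psme3 stay near 0.

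The catalytic subunits all rose, 3 of 3, with no overlap between the Vehicle and Sham mice. Of all genes, 22.7% rose and 20.7% had every Vehicle mouse above every Sham mouse. Psmb6 (chr11:70525324-70527858), the caspase-like subunit, was at 55.2, 61.5, 63.5 and 61.2 CPM in Sham mice, 103, 102, 72.4 and 76.8 in Vehicle mice and 72.6, 68.5, 74.6 and 67.7 in LJP mice. It rose by a log2 fold change of 0.55 (SE 0.11, edgeR adjusted p = 0.00275), with Vehicle 1 and Vehicle 2 far above the rest. Psmb5 (chr14:54614120-54617995), the chymotrypsin-like subunit that carries the main peptidase activity, was at 79.99, 86.9, 85.3 and 89.6 CPM in Sham, 111, 101, 101 and 99.3 in Vehicle and 92.6, 97.8, 95.6 and 93.2 in LJP mice. Its 4 Vehicle values were close together, and the change was smaller, at 0.27 (SE 0.06, edgeR adjusted p = 0.00506). Psmb5 was also the catalytic subunit whose LJP mice lay between the other groups without overlap on either side. Psmb7, the trypsin-like subunit, was at 74.6, 76.01, 79.02 and 74.9 CPM in Sham, 107, 100.2, 85.9 and 87.2 in Vehicle and 81.8, 78.2, 86.9 and 88.5 in LJP mice. It rose by 0.32 (SE 0.08, edgeR adjusted p = 0.00775), and LJP 4 and LJP 3 lay inside the Vehicle range.

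All 4 non-catalytic beta subunits, which build the ring around the proteolytic sites, rose as well. Psmb3 (chr11:97703434-97713500) had the largest change of the 20S core genes that rose, from 36.9, 41.6, 42.03 and 42.2 CPM in Sham to 71.7, 76.3, 47.6 and 53.2 in Vehicle mice, with 44.1, 42.8, 44.4 and 47.3 in LJP mice. Its log2 fold change was 0.61 (SE 0.13, edgeR adjusted p = 0.00369), and its 3 groups did not overlap, with Sham lowest and Vehicle highest. Psmb4 was at 89.8, 93.9, 93.5 and 95.5 CPM in Sham, 148, 132, 102 and 114 in Vehicle and 94.4, 98.5, 102 and 105 in LJP mice, a change of 0.41 (SE 0.10, edgeR adjusted p = 0.00639). Psmb2 (0.51) and Psmb1 (0.26) also rose, so that the beta ring rose in 7 of 7 genes, against 22.7% of all genes.

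In the alpha ring, whose N-terminal tails close the gate of the barrel, 3 of 7 genes rose (Psma2, Psma5 and Psma6), as did 22.7% of all genes. The other alpha ring genes had log2 fold changes of 0.11 to 0.25. Psma6 was at 56.7, 58.9, 53.4 and 61.3 CPM in Sham mice, 84.4, 98.5, 60.01 and 63.2 in Vehicle mice and 57.9, 50.7, 62.9 and 60.4 in LJP mice. It rose by 0.41 (SE 0.14, edgeR adjusted p = 0.0337), although Vehicle 3 was below Sham 4. Psma2 showed the same split, with 52.1, 43.8, 48.3 and 44.98 CPM in Sham, 61.9, 72.01, 50.3 and 55.7 in Vehicle and 42.97, 43.9, 54.1 and 51.3 in LJP mice, and a change of 0.34 (SE 0.12, edgeR adjusted p = 0.0330). Of the 12 fits that left out 1 mouse, the call was lost in 5 for Psma2 (Sham 2, Sham 3, Sham 4, Vehicle 1 or Vehicle 2 left out), in 5 for Psma5 (any Sham mouse or Vehicle 2) and in 6 for Psma6 (any Sham mouse, Vehicle 1 or Vehicle 2). Psma8 was at 0.115, 0.0545, 0.384 and 0.155 CPM in Sham, 0.862, 1.68, 0.108 and 0.108 in Vehicle and 0.545, 0.460, 0.544 and 0.111 in LJP mice, near the detection limit and with 1.96 (SE 0.86, edgeR adjusted p = 0.0851). No change of Psma8 was detectable at this depth by that test, and leaving out Vehicle 3 or Vehicle 4 made it a call.

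The 6 ATPases of the 19S base, which unfold the substrate, were split. Psmc3 and Psmc4 rose, while Psmc5 did not pass, with a log2 fold change of 0.01 (SE 0.07) and a range of 128 to 148 CPM in Vehicle against 132 to 141 in Sham mice. Psmc4 (chr7:28041702-28050092) was at 61.99, 64.9, 68.3 and 69.96 CPM in Sham, 95.7, 90.2, 78.9 and 73.3 in Vehicle and 71.1, 69.1, 71.5 and 78.5 in LJP mice. It rose by 0.35 (SE 0.09, edgeR adjusted p = 0.00811) without overlap between Vehicle and Sham. Psmc3 was at 122, 116, 121 and 125 CPM in Sham, 156, 154, 134 and 137 in Vehicle and 127, 121, 127 and 139 in LJP mice, a rise of 0.26 (SE 0.07, edgeR adjusted p = 0.0121). Psmc1 did not pass the test (0.18, SE 0.09, edgeR adjusted p = 0.123), with 107, 102, 107 and 109.6 CPM in Sham, 132, 136, 109.7 and 107 in Vehicle and 93.7, 97.4, 108 and 113 in LJP mice. Vehicle 3 and Vehicle 4 had Sham levels of Psmc1, and LJP 1 and LJP 2 were below every other mouse. The remaining ATPases, Psmc2 and Psmc6, had log2 fold changes of 0.21 and 0.18 and did not pass.

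Of the other base subunits, Psmd4, a ubiquitin receptor, rose from 76.9, 79.01, 76.99 and 81.5 CPM in Sham to 109, 101, 86.3 and 81.4 in Vehicle mice, with 79.5, 83.6, 82.7 and 91.6 in LJP mice. The change was 0.27 (SE 0.09, edgeR adjusted p = 0.0336), and Vehicle 4 lay just under Sham 4. The scaffold subunits Psmd1 and Psmd2 missed the threshold. Psmd2 was at 216, 209, 213 and 211 CPM in Sham, 278, 243, 226 and 218 in Vehicle and 214, 210.3, 220.3 and 229.6 in LJP mice (0.19, SE 0.08, edgeR adjusted p = 0.0726). Psmd1 was at 104, 104, 109 and 101 CPM in Sham, 134, 141, 107 and 104 in Vehicle and 99.9, 103, 114 and 109.9 in LJP mice (0.22, SE 0.10, edgeR adjusted p = 0.0930). All 4 Vehicle values of Psmd2 were above Sham, whereas Vehicle 3 and Vehicle 4 of Psmd1 lay within the Sham range.

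The lid, which removes ubiquitin from the substrate, rose in 3 of 8 genes (Psmd8, Psmd13 and Psmd3), where 22.7% of all genes rose. Psmd8 (chr7:29174187-29180673) had the smallest p-value of all 47 genes and was at 61.9, 64.5, 67.5 and 70.6 CPM in Sham, 97.9, 114, 83.3 and 85.7 in Vehicle and 73.2, 74.5, 77.7 and 76.4 in LJP mice. It rose by 0.53 (SE 0.09, edgeR adjusted p = 0.00141), also in Vehicle 3 and Vehicle 4, and its 3 groups did not overlap. Psmd13 was at 61.4, 63.9, 63.7 and 60.6 CPM in Sham, 84.1, 88.6, 71.05 and 70.9 in Vehicle and 63.8, 64.4, 67.9 and 73.9 in LJP mice, a rise of 0.34 (SE 0.08, edgeR adjusted p = 0.00866). Psmd14, the deubiquitinase of the lid, did not pass, with a log2 fold change of -0.01 (SE 0.09). The other 4 lid genes had log2 fold changes between 0.08 (Psmd7) and 0.24 (Psmd11) and did not pass.

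Among the chaperones, 1 of 3 for the base and 1 of 4 for the core rose, against 22.7% of all genes. Psmd9 was at 24.4, 28.4, 25.7 and 27.6 CPM in Sham, 38.7, 38.5, 26.8 and 30.1 in Vehicle and 29.6, 28.5, 25.02 and 28.3 in LJP mice (0.34, SE 0.12, edgeR adjusted p = 0.0396). Vehicle 3 lay within the Sham range and the other Vehicle mice above it, and the call was lost in 9 of the 12 fits that left out 1 mouse, those without any 1 Sham mouse, Vehicle 1, Vehicle 2, LJP 1, LJP 2 or LJP 4 (edgeR). Psmd5 was at 32.5, 35.8, 38.8 and 36.1 CPM in Sham, 45.1, 42.5, 30.2 and 35.3 in Vehicle and 35.2, 31.2, 31.7 and 38.6 in LJP mice, with overlapping groups (0.10, SE 0.12, edgeR adjusted p = 0.548). Psmg4, which pairs with Psmg3 in building the alpha ring, was at 4.15, 4.69, 3.95 and 3.58 CPM in Sham, 6.31, 6.36, 4.52 and 5.71 in Vehicle and 4.81, 5.57, 5.87 and 4.68 in LJP mice. It rose by 0.49 (SE 0.16, edgeR adjusted p = 0.0288), and LJP mice overlapped both groups. Psmg1 was at 7.27, 7.79, 7.89 and 9.95 CPM in Sham, 11.9, 10.6, 8.77 and 7.92 in Vehicle and 6.77, 8.59, 8.16 and 9.09 in LJP mice (0.25, SE 0.16, edgeR adjusted p = 0.220). Psmg2, Psmg3 and Psmd10 had log2 fold changes of 0.02, 0.16 and 0.04 and did not pass.

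The largest changes among the genes that rose were those of the PA28 subunits, which interferon induces and which open the core without the 19S particle. Psme2 (chr14:55587440-55591101) was at 14.8, 15.04, 14.1 and 15.1 CPM in Sham, 29.1, 37.5, 21.5 and 21.2 in Vehicle and 20.8, 15.5, 22.5 and 19.8 in LJP mice. It rose by 0.89 (SE 0.17, edgeR adjusted p = 0.00236), and the LJP mice lay above the Sham mice without overlap. Its partner Psme1 (chr14:55578494-55581527) was at 24.3, 21.5, 19.8 and 22.5 CPM in Sham, 39.9, 46.5, 27.9 and 28.6 in Vehicle and 29.9, 21.1, 27.7 and 25.7 in LJP mice, a rise of 0.70 (SE 0.17, edgeR adjusted p = 0.00615). Psme1 overlaps Emc9 on the opposite strand, whose mean count was 66.4% of that of Psme1 and whose log2 fold change was 0.14; the strand setting of the counting is not given in the sources used here. Psmf1, the inhibitor PI31, rose by 0.37 (SE 0.12, edgeR adjusted p = 0.0243) and overlaps Tmem74b, which had 30.1% of its mean count. Psme3, the nuclear relative of PA28 that interferon does not induce, did not pass (-0.06, SE 0.06), at 92.2 to 102 CPM in Vehicle against 97.9 to 103 in Sham mice. Psme4 (PA200) and Psme2b did not pass, and reads of Psme2b, a near-copy of Psme2, could belong to either. Of the 2 genes matched by name only, Psmc3ip was at 3.23, 2.89, 2.79 and 2.59 CPM in Sham, 3.00, 5.67, 4.20 and 3.93 in Vehicle and 3.41, 2.51, 3.43 and 2.56 in LJP mice (0.55, SE 0.21, edgeR adjusted p = 0.0563). Psme3ip1 was at 35.7, 33.9, 36.9 and 36.7 CPM in Sham, 34.5, 33.8, 32.1 and 33.8 in Vehicle and 33.5, 28.7, 32.9 and 34.9 in LJP mice (-0.09, SE 0.08, edgeR adjusted p = 0.347). Neither passed, and both overlap a gene on the opposite strand, Mlx with 534% of the mean count of Psmc3ip and Rspry1 with 60.8% of that of Psme3ip1.

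**Figure D4:**
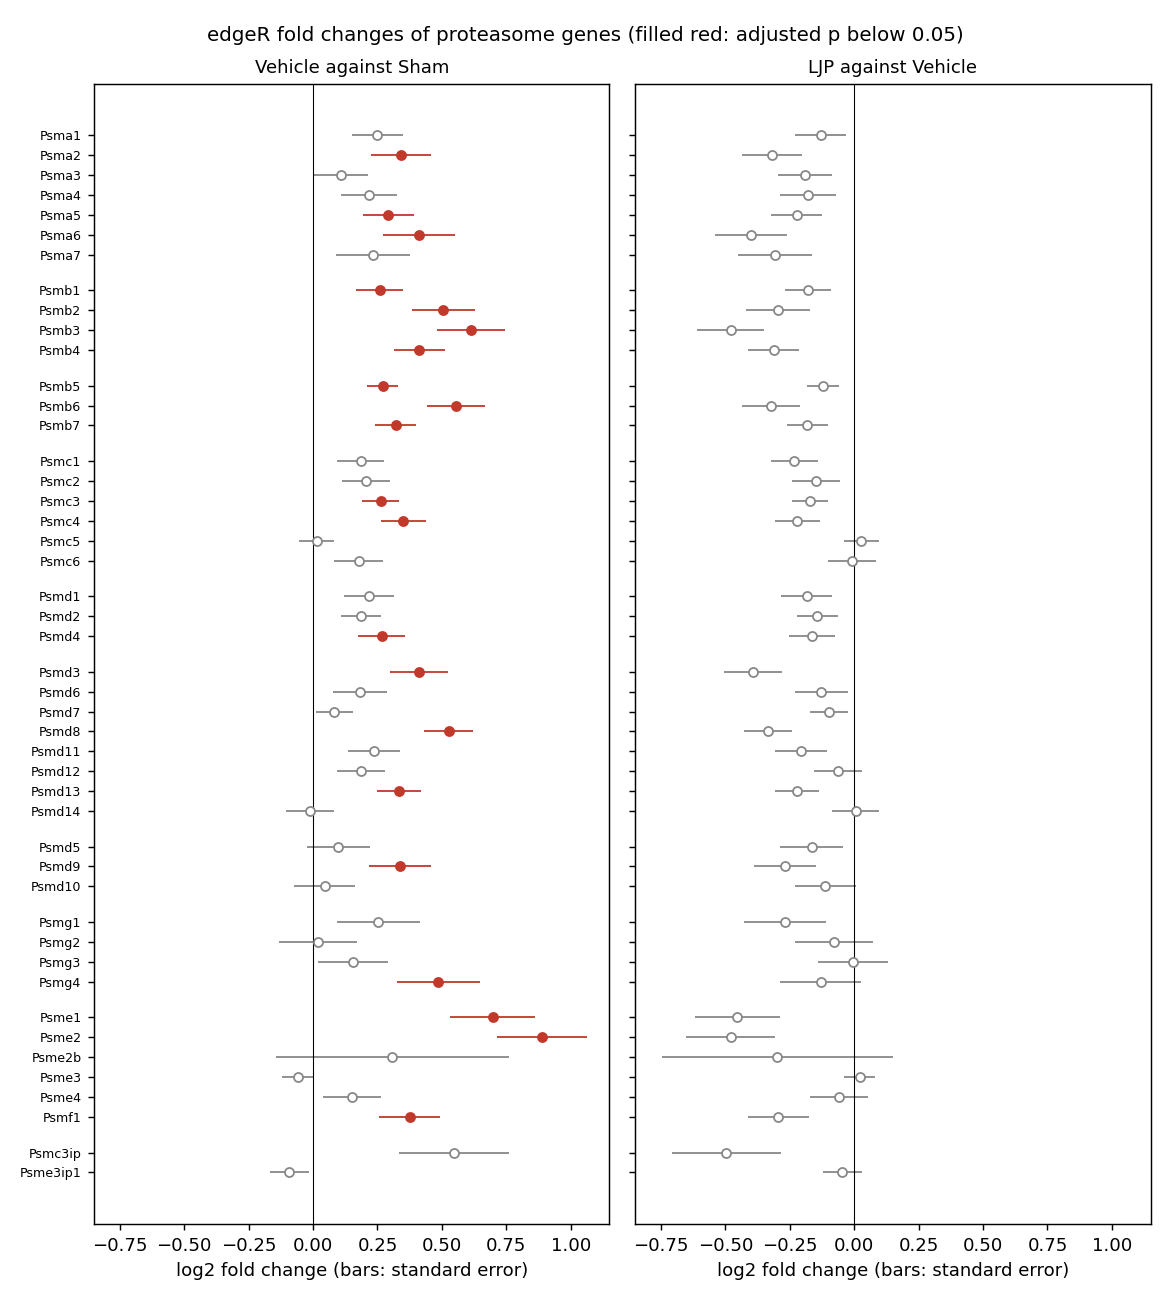
Log2 fold change with its standard error for 46 tested genes in rows by role, Vehicle against Sham on the left and LJP against Vehicle on the right, with filled red points for an edgeR adjusted p below 0.05. All 7 beta ring genes are red on the left, Psmc5, Psmd14 and Psme3 sit at 0, and on the right no point is red although most lie below 0. Psma8 is left out of the plot.

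Calls differed in how much they rested on single mice. With each of the 12 mice left out in turn, 13 to 26 genes rose, while 29.5% to 45.9% of all genes changed in either direction, and 13 of the proteasome genes rose each time: Psmb2, Psmb3, Psmb4, Psmb5, Psmb6, Psmb7, Psmc3, Psmc4, Psmd3, Psmd8, Psmd13, Psme1 and Psme2. The lowest count, 13, came without Vehicle 2, where 34.3% of all genes changed. The other 8 of the 21 lost their call in 4 (Psmf1) to 9 (Psmd9) of the 12 fits, each of them in the fit without Vehicle 2 and in at least 2 of the fits that left out a Sham mouse.

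The second comparison, LJP against Vehicle, asks whether the polysaccharide changed these genes after tMCAO. It uses the same 4 Vehicle mice as the first, so that the signs of the 2 comparisons are not independent. Of the 47 genes, 44 (93.6%) had a lower mean in LJP mice, and the median log2 fold change was -0.18, against -0.002 over all genes, of which 49.8% were above 0. None passed edgeR's adjusted threshold, as for all but 4 of 17558 genes (0.0228%). At an unadjusted p below 0.05, 19 were lower (40.4%) and none higher, against 17.4% and 12.3% of all genes. DESeq2 called 4 lower (Psmb3, Psmb4, Psmd3 and Psmd8) and none higher, with 9.48% of all genes lower and 3.88% higher. The groups did not overlap in 4 genes (Psmb3, Psmb5, Psmd3 and Psmd8), with LJP below in all 4, as in 5.91% of all genes, while LJP was above in 5.77%. Psmd3 falls outside the rule for named genes and is named here for being in these counts.

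Psmb3, a beta ring subunit, differed by -0.48 (SE 0.13, edgeR adjusted p = 0.0680, DESeq2 adjusted p = 0.0183), the highest LJP mouse being at 47.3 CPM and the lowest Vehicle mouse at 47.6. Psmd8 differed by -0.34 (SE 0.09, edgeR adjusted p = 0.0689), with the highest LJP mouse at 77.7 and the lowest Vehicle mouse at 83.3 CPM. Psmd3 was at 137, 143, 142 and 146 CPM in Sham, 226, 216, 158 and 156 in Vehicle and 148, 145, 138 and 143 in LJP mice, a difference of -0.39 (SE 0.11, edgeR adjusted p = 0.0707). In these genes Vehicle 3 and Vehicle 4 lay nearer to the LJP mice than to Vehicle 1 and Vehicle 2. The catalytic subunits Psmb6, Psmb7 and Psmb5 differed by -0.32 (SE 0.11), -0.18 (SE 0.08) and -0.12 (SE 0.06). For PA28, the differences were -0.48 (SE 0.17) in Psme2 and -0.45 (SE 0.16) in Psme1. Psma6, Psma2 and Psmc1 differed by -0.40 (SE 0.14), -0.32 (SE 0.12) and -0.23 (SE 0.09), and Psmc3ip by -0.50 (SE 0.21). None of these passed edgeR's adjusted threshold (adjusted p of 0.0680 to 0.206 over these 12 genes). Psmc5 (0.03, SE 0.07), Psmd14 (0.01, SE 0.09) and Psme3 (0.02, SE 0.06) were the 3 genes with a log2 fold change above 0.

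The number of calls turned on the Vehicle mice. Without Vehicle 3, 14 genes were lower by edgeR's adjusted p, among 21.6% of all genes called, and without Vehicle 4, 6 were lower, among 11.7%. Without both Vehicle 1 and Vehicle 2, none was called, as for all but 8 of 18066 genes (0.0443%), and the median log2 fold change was -0.03.

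The third comparison, LJP against Sham, asks how far LJP mice were from uninjured mice, and it shares mice with both others. The mean was higher in LJP mice in 36 of 47 genes, the median log2 fold change was 0.07, and none passed edgeR's adjusted threshold, which 4.75% of all genes passed (3.85% higher and 0.9% lower). The log2 fold change was above 0 in 50.6% of all genes. DESeq2 called none, with 5.67% of all genes higher and 1.98% lower, and at an unadjusted p below 0.05, 3 were higher (Psmb5, Psme2 and Psmg4) and none lower, against 11.6% and 7.29% of all genes. All 4 LJP mice lay above all 4 Sham mice in 5 genes (Psmb3, Psmb5, Psmb6, Psmd8 and Psme2), as in 12.9% of all genes, and in none all below, as in 12%. The largest of these, Psme2, differed by 0.41 (SE 0.17, edgeR adjusted p = 0.223), then Psmb6 by 0.23 (SE 0.11), Psmd8 by 0.19 (SE 0.09), Psmb5 by 0.15 (SE 0.06) and Psmb3 by 0.14 (SE 0.13). With only the LJP and Sham mice in the fit, Psmb6, Psmd8 and Psme2 rose (3 of 46 tested), among 23.8% of all genes called, and without both Vehicle 1 and Vehicle 2, Psmb5, Psmb6, Psmd8 and Psme2 rose, among 24.3% of all genes called.

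The inducible catalytic subunits Psmb8, Psmb9 and Psmb10 all rose in Vehicle mice. Psmb8, which takes the place of Psmb5, was at 2.71, 2.45, 1.86 and 2.75 CPM in Sham, 13.1, 25.2, 8.83 and 10.99 in Vehicle and 11.7, 4.65, 10.8 and 7.08 in LJP mice. Psmb9, the inducible counterpart of Psmb6, was at 0.807, 1.14, 1.10 and 0.933 CPM in Sham, 5.54, 7.18, 2.10 and 2.64 in Vehicle and 4.54, 1.99, 3.92 and 2.62 in LJP mice. Psmb10, that of Psmb7, was at 22.8, 23.4, 27.8 and 28.6 CPM in Sham, 58.2, 43.1, 31.4 and 37.9 in Vehicle and 34.2, 28.3, 30.9 and 31.6 in LJP mice. In all 3 genes the 4 Vehicle mice lay above the 4 Sham mice, and in Psmb10 LJP 2 lay within the Sham range. The rises were 2.57 in Psmb8, 2.13 in Psmb9 and 0.73 in Psmb10 (edgeR), none passed in LJP against Vehicle, and Psmb8 (1.81) and Psmb9 (1.71) rose in LJP against Sham. Leaving out 1 mouse ended that call of Psmb9 in 6 of 12 fits, those without any 1 Sham mouse, LJP 1 or LJP 3 (edgeR adjusted p up to 0.106), and that of Psmb8 in 1, without Sham 3 (edgeR adjusted p = 0.0513). With the replicate number as a block, Psmb9 also missed the threshold (edgeR adjusted p = 0.0720). Each was set over its constitutive counterpart as a log2 ratio of counts in the same library, which library scaling does not touch, and tested by exact two-sided permutation over 9 ratio comparisons. Psmb8 over Psmb5 was -4.88, -5.15, -5.52 and -5.03 in Sham, -3.08, -2.00, -3.52 and -3.17 in Vehicle and -2.98, -4.39, -3.14 and -3.72 in LJP mice. The ratio was 2.20 higher in Vehicle than in Sham mice (exact permutation p = 0.0286, the smallest that 4 against 4 mice can give, and 0.0644 after Benjamini-Hochberg adjustment), with all 4 Vehicle mice above all 4 Sham mice. Psmb9 over Psmb6 was -6.09, -5.75, -5.86 and -6.04 in Sham, -4.22, -3.83, -5.11 and -4.86 in Vehicle and -4.00, -5.10, -4.25 and -4.69 in LJP mice, which was 1.43 higher in Vehicle and 1.42 higher in LJP than in Sham mice (both exact permutation p = 0.0286, adjusted 0.0644). Psmb10 over Psmb7 was -1.71, -1.70, -1.51 and -1.39 in Sham, -0.88, -1.22, -1.45 and -1.20 in Vehicle and -1.26, -1.47, -1.49 and -1.48 in LJP mice. Vehicle 3 lay within the Sham range, and the ratio was higher by 0.39 in Vehicle against Sham (exact permutation p = 0.0571, adjusted 0.0856). Between LJP and Vehicle mice the differences were -0.61 for Psmb8 over Psmb5, -0.01 for Psmb9 over Psmb6 and -0.24 for Psmb10 over Psmb7 (exact permutation p = 0.257, 0.943 and 0.0571). All 4 LJP mice had ratios of Psmb9 over Psmb6 within the Vehicle range. For Psmb8 over Psmb5, LJP 1 and LJP 3 lay within it and LJP 2 and LJP 4 below it, and LJP 2 was the lowest LJP mouse in both ratios.

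**Figure D5:**
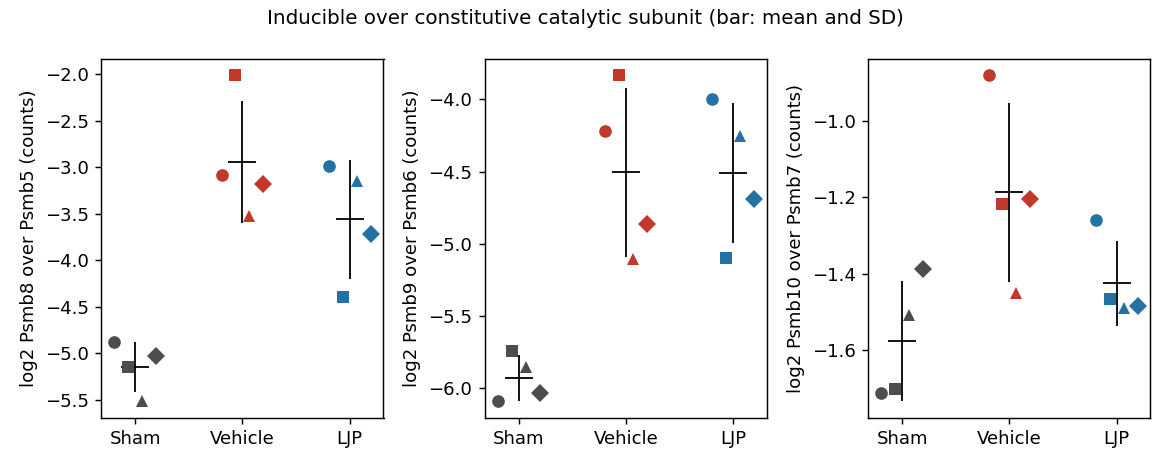
Log2 ratio of counts of each inducible catalytic subunit over the constitutive subunit it replaces, with 1 point per mouse by group, the mouse number as symbol, and the mean with its SD as a bar. For Psmb8 over Psmb5 all 4 Vehicle and all 4 LJP mice lie above the Sham mice, whose highest value is -4.88.

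Other genes of the ubiquitin-proteasome system were described from lists that held 35 genes of the table, of which 34 were tested. In Vehicle against Sham, 8 of the 34 rose and 6 fell, against 22.7% and 17.3% of all genes, and the median log2 fold change was 0.12. Rps27a, a ubiquitin precursor that also carries a ribosomal protein, rose by 0.63 (SE 0.16). Among subunits and assembly factors with other names, the ubiquitin receptor Adrm1 rose by 0.47 (SE 0.13), from 74.6, 71.7, 80.9 and 83.1 CPM in Sham to 123, 133, 84.5 and 89.1 in Vehicle mice, with 81.8, 83.8, 78.2 and 82.04 in LJP mice. The core maturation factor Pomp (0.21, SE 0.08, edgeR adjusted p = 0.0610) and the lid subunit Sem1 (0.31, SE 0.12, edgeR adjusted p = 0.0606) did not pass.

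Of the transcription factors, Nfe2l1 did not pass and was at 484, 493, 504 and 496 CPM in Sham, 523, 396, 468 and 455 in Vehicle and 463, 456, 448 and 474 in LJP mice (-0.10, SE 0.08, edgeR adjusted p = 0.337). Nfe2l2, which encodes the oxidative stress factor NRF2, was at 13.8, 12.1, 11.7 and 12.7 CPM in Sham, 28.7, 48.3, 22.9 and 25.3 in Vehicle and 23.3, 13.4, 28.7 and 16.8 in LJP mice and rose by 1.32 (SE 0.26, edgeR adjusted p = 0.00232). Nfyb, a subunit of the CCAAT-binding NF-Y, differed by -0.26 (SE 0.10, edgeR adjusted p = 0.0624). Of 9 genes for enzymes and other proteins associated with the 26S particle 4 fell and none rose, and of 9 shuttles and unfoldases 3 rose and 2 fell. By the same test 22.7% of all genes rose and 17.3% fell. Usp14, a deubiquitinase bound to the base, fell by 0.38 and the ligase Ube3a by 0.48 on the log2 scale. Ube3a was at 127, 121, 121 and 112 CPM in Sham, 70.6, 69.6, 104 and 101 in Vehicle and 109.5, 108, 102 and 112 in LJP mice, with Vehicle 1 and Vehicle 2 the lowest. The shuttle Ubqln2 fell by 0.47, and Nploc4, a cofactor of the unfoldase Vcp, rose by 0.41 (SE 0.10). In LJP against Vehicle none of the 34 passed edgeR's adjusted threshold, while DESeq2 called 4, among them Usp14 higher and Adrm1 lower, with 13.4% of all genes called in either direction. In LJP against Sham none passed edgeR's adjusted threshold, which 4.75% of all genes passed.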

How the data were processed

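RNA from brain hemispheres of 12 mice (Sham, Vehicle and LJP, 4 mice in each) was measured, and the sample labels gave group and replicate. The authors deposited raw read counts per gene and mouse, without normalization, with gene positions and lengths. The submitters' processing notes name featureCounts, DESeq2, GRCm39 and mm10. The aligner and the strand setting are not given in the sources used here. All 39756 gene IDs matched the RefSeq table of GRCm38.p6 with identical starts and ends.

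Counts were fitted in R 4.3.3 with edgeR 4.0.16: after filterByExpr (17558 genes kept) and TMM scaling, the quasi-likelihood model had 1 term per group over all 12 mice, with p-values adjusted by the Benjamini-Hochberg method over all 17558 genes and a threshold of 0.05. Levels are CPM on TMM-scaled library sizes. A count of 0 allows up to 3 counts, for counting error only. The methods give 4 hemispheres per group, so each library was taken as 1 mouse. The ratio of inducible to constitutive counts, and Psmb11 on log2 of CPM plus 0.5, were compared by exact two-sided permutation tests. Duplicate libraries were looked for: all pairs within a group differed by more than sampling noise (lowest chi-square over its degrees of freedom 2.56). The test was checked on simulated counts. Plots used matplotlib 3.10.9.

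The members and gene lists were chosen with earlier results of these data known. Values in every mouse are given for the catalytic subunits, for the 2 members of each role with the smallest p in Vehicle against Sham and the 1 in LJP against Vehicle, and for the inducible subunits; of the pathway lists, Nfe2l1, Nfe2l2, Pomp and the 2 genes of each list with the smallest p were named. Some genes that this rule names are not reported here. Alternatives were DESeq2 1.42.0, RLE factors, library size only, no filter, the 2 groups alone, the replicate number as a block, the study's own thresholds and leaving out each mouse. Thinning to the smallest library and leaving out both Vehicle 1 and Vehicle 2 were added after seeing the data.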

Additional observations from a re-analysis of the deposited data

Results flagged for a closer look

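In groups of 4 mice, 5 of 129 sets of values had 1 mouse far from the other 3 by Dixon's ratio, the gap to the nearest mouse over the range of the group. About 6.45 would be flagged by chance. Sham 1 was lowest in Psmb3 (36.9 CPM against 41.6 to 42.2, ratio 0.885) and in Nploc4 (67.4 against 73.7 to 74.6, ratio 0.873). In the Vehicle group, Vehicle 1 was highest in Nfyb (37.8 CPM against 28.2 to 29.3, ratio 0.885) and Vehicle 2 was lowest in Ubqln2 (169 CPM against 250.5 to 258, ratio 0.914). LJP 1 had the highest log2 ratio of Psmb10 over Psmb7 in the LJP group (-1.26 against -1.49 to -1.47, ratio 0.896).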

How the results depend on the processing

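Of the 1290 refits of reported fold changes, 1174 kept their direction and their side of the threshold. In Vehicle against Sham, 21 proteasome genes rose. The count was 13 with only the 2 groups in the fit (30.7% of all genes called in either direction, against 39.9% with all 12 mice), 28 with library size only (40.1%), 16 with no filter on low counts (21.2%) and 8 without both Vehicle 1 and Vehicle 2 (29.7%). On the edgeR values, the thresholds of 0.58 and 0.01 called 3 proteasome genes, with 15.3% of all genes higher and 6.39% lower. They called 4 of the other pathway genes (14 with all 12 mice and the adjusted p). Leaving out 1 mouse at a time gave 13 (without Vehicle 2) to 26 proteasome genes and 9 (without Sham 1) to 18 pathway genes. In LJP against Vehicle it gave 0 to 14 (without Vehicle 3, and 6 without Vehicle 4) and 0 to 10 (without Vehicle 3, and 5 without Vehicle 4), and DESeq2 called 4 of each. Of all genes, 21.6% were called without Vehicle 3, 11.7% without Vehicle 4 and 13.4% by DESeq2. In LJP against Sham, 3 proteasome and 7 pathway genes were called with only the 2 groups in the fit (23.8% of all genes called), and 4 and 8 without both Vehicle 1 and Vehicle 2 (24.3%). Leaving out 1 mouse gave 0 proteasome genes and 0 to 2 (without Vehicle 2) pathway genes, with 2.2% to 13.3% (without Vehicle 2) of all genes called. The causes of these differences were not tested.

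No pairing of the mice by replicate number was seen: correlations of same-numbered mice ran from -0.32 to 0.11 and 1 of 12 was over 0.1. Mice with different numbers reached 0.40 (Vehicle 2 with LJP 3). With 4 mice in each group, these values cannot exclude a pairing. With the replicate number as a replicate block, 15 proteasome genes rose in Vehicle against Sham (34.8% of all genes called), none in LJP against Vehicle (0.0114%) or LJP against Sham (2.64%), and the calls of Psma2, Psma5, Psma6, Psmb1, Psmd4 and Psmf1 were lost.

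Some values near 0 changed sign. With library size only, which moved the median of all genes by 0.08 in Vehicle against Sham, the log2 fold change of Psmd14 was 0.065 and of Psme3 0.0166, and in LJP against Vehicle -0.0193 and -0.0024. Leaving out 1 mouse, Psmc5 ran from -0.0151 to 0.0478 and Psmd14 from -0.0637 to 0.0227 in Vehicle against Sham, and in LJP against Vehicle Psmc5 from -0.0154 to 0.0564, Psmd14 from -0.0599 to 0.0689 and Psme3 from -3.2e-05 to 0.0527. For Psmb11 in LJP against Sham the log2 difference ran from -0.0573 to 0.0896 (exact permutation p of at least 0.457).

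The ratios over 8 fits that left out 1 mouse ran from 1.39 to 1.86 for Psmb8 over Psmb5 in LJP against Sham (exact permutation p up to 0.0571), from 1.20 to 1.63 for Psmb9 over Psmb6 in Vehicle against Sham and from 1.25 to 1.62 in LJP against Sham (both up to 0.0571), from 0.29 to 0.48 for Psmb10 over Psmb7 in Vehicle against Sham and from 0.10 to 0.21 in LJP against Sham. Psmb9 over Psmb6 in LJP against Vehicle ran from -0.21 to 0.22 and was 0.0107 with 5 added to each count. Promoter motif shares over the 250 bases before the start were 12.5% for TGACNNNGC and 37.5% for CCAAT. Psmb11 had too few counts for the edgeR fit, and a change in it was not detectable at this depth.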
